A study of Mus musculus with 6 samples.

Results

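The 7 mitochondrially encoded subunits of respiratory complex I were followed in the ovalbumin-expressing mouse melanoma line B16F10-OVA, which makes pigment. They are mt-Nd1, mt-Nd2, mt-Nd3, mt-Nd4, mt-Nd4l, mt-Nd5 and mt-Nd6, and they were taken by name from the deposited table, which holds 21801 genes, 13 of them on the mitochondrial genome. 3 libraries came from untreated cells. The other 3 came from cells given 50 µM Ac4ManNAz, an acetylated azide-bearing sugar used to label sialic acids, from day 0 until RNA isolation on day 5, with a passage on day 3. The labels name no solvent given to the untreated cells. All 6 libraries are of the same line, of total RNA freed of rRNA and made strand-specific, and the comparison asks whether the labelling itself alters transcript levels. Nothing in the labels ties the 3 libraries of a group to separate cultures, and p-values therefore reflect the spread among these libraries alone, which may be technical.

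Complex I takes electrons from NADH, passes them to ubiquinone and pumps protons across the inner mitochondrial membrane. Its membrane arm is built around the mitochondrially encoded subunits, while the nucleus encodes the remaining core subunits and all accessory subunits. Mitochondrial DNA is read from both strands into long precursors that are cut mostly at tRNAs, and mt-Nd6 is the only protein-coding gene on the light-strand transcript. The other members lie on the heavy-strand transcript, where mt-Nd4l and mt-Nd4 stay joined in a shared mRNA.

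The sequences below show the contrast between the strands, and were taken from the GENCODE M21 transcripts by transcript identifier. Each line gives the first 60 bases of a transcript, 5′ to 3′, with the first annotated codon in capitals.
mt-Nd1: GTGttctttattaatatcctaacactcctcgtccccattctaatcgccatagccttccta
mt-Nd2: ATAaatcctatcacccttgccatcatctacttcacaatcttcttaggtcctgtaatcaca
mt-Nd3: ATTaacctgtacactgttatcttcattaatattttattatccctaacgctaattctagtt
mt-Nd4l: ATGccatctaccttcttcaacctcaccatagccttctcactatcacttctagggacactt
mt-Nd4: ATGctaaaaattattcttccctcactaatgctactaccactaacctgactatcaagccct
mt-Nd5: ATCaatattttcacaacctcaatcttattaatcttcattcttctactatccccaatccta
mt-Nd6: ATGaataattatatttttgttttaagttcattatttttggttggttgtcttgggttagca

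mt-Nd6 differed from the other members in base composition. Over the whole transcript mt-Nd6 held 28.1% G and 5.97% C, whereas the 6 heavy-strand members held between 7.996% and 11.6% G and between 22.1% and 30.0% C. GC content as a whole did not set mt-Nd6 apart, at 34.1% against a range of 33.0% to 41.1%. The deposited positions on the mitochondrial chromosome are 2751 to 3707 for mt-Nd1, 3914 to 4951 for mt-Nd2 and 9459 to 9806 for mt-Nd3. They are 9877 to 10173 for mt-Nd4l, 10167 to 11544 for mt-Nd4, 11742 to 13565 for mt-Nd5 and, on the opposite strand, 13552 to 14070 for mt-Nd6. The genome build is not given in the sources used here; all 13 mitochondrial genes have the same spans in GENCODE M21. Each member has 1 transcript in the table.

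Neighbouring members overlap at 2 places, shown here because reads over shared bases can belong to either gene. mt-Nd4l and mt-Nd4 share 7 bases on the same strand, and mt-Nd5 and mt-Nd6 end in each other over 14 bases on opposite strands. Capitals mark the shared bases, or those complementary between the strands, in 60 bases of each transcript.
mt-Nd4l end: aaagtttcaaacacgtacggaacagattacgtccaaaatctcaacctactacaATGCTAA
mt-Nd4 start: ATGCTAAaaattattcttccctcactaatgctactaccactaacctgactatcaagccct
mt-Nd5 end: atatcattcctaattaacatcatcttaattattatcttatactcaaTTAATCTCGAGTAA
mt-Nd6 end: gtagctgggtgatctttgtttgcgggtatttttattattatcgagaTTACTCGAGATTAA

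The libraries are strand-specific, but whether counting used the strand is not given in the sources used here. Without it, mt-Nd6 reads could not be told apart from heavy-strand precursor that crosses the same stretch. Nuclear copies of mitochondrial DNA are a further source of shared reads. Annotated copies at least 99% identical, all on chromosome 1, cover 99.1% of mt-Nd3 (Gm28438), 98.99% of mt-Nd4l (Gm10222) and 63.6% of mt-Nd4 (Gm28439), and their levels are uncertain to that extent. The closest copies were 96.7% identical for mt-Nd2 over 49.1% of the gene, 95.2% for mt-Nd5 over 52.3% and 93.6% for mt-Nd6 over its whole length. For mt-Nd1 no copy met the minimum of 85% identity over 150 bases. The transcripts of mt-Nd4l, at 297 bases, and mt-Nd3, at 348 bases, are also shorter than the 370 to 420 bp to which the cDNA fragments were selected per the labels.

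The libraries held 310003 to 347126 FPKM in sum, a measure of fragments per length and per sequencing depth, and 13912 to 18974 genes above 0. The 13 mitochondrial genes took 1.43% to 2.15% of that sum and the 7 complex I members 0.324% to 0.424%, with overlapping groups. The melanocyte genes Pmel, Tyr, Tyrp1, Dct, Mlana, Mitf and Sox10 were each above 50 FPKM in every library. Mlana stood at 158 FPKM in Ac4ManNAz replicate 2, the highest library for mt-Nd1, mt-Nd2, mt-Nd4 and mt-Nd5, against 856 to 1269 FPKM in the other libraries, and its part in the results was not tested. The endothelial marker Cdh5 and the leukocyte marker Ptprc were at or near 0, and the summed lists of fibroblast, macrophage and endothelial markers reached at most 4.50, 5.77 and 1.41 FPKM. Higher single markers in these lists were Col1a2 at 1.36 to 4.38, Lyz2 at 1.70 to 3.96, Cd68 at 0.853 to 2.23 and Pecam1 at 0.166 to 1.40 FPKM. No counts were used here. If 1 fragment corresponds to the commonest low product of FPKM and length, which was not established, libraries held 30300000 to 46000000 fragments. On that reading mt-Nd4l rests on 161 to 246 fragments per library, mt-Nd6 on 234 to 520 and mt-Nd3 on 6603 to 13885.

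The members spanned a wide range of FPKM although they serve the same complex. mt-Nd3, a small subunit beside the ubiquinone channel, was the most abundant per length in every library, with a mean of 748.0 FPKM over all 6. mt-Nd1, which forms much of the ubiquinone channel, followed in every library at 246 FPKM. The antiporter-like subunits mt-Nd5, mt-Nd2 and mt-Nd4, which carry proton pathways, lay close together at 67.5, 62.5 and 53.2 FPKM. The small subunits mt-Nd6 and mt-Nd4l were lowest, at 20.5 and 19.6 FPKM. mt-Nd4l and mt-Nd4 were listed at unequal levels although they share an mRNA, so the order is one of FPKM and may not be one of mRNA. The limits given above for mt-Nd3 and mt-Nd4l, short length and near-identical nuclear copies, apply to both ends of this order.

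Neighbours in this order were compared within libraries by an exact two-sided sign-flip permutation test, adjusted over the 6 neighbouring pairs by the Benjamini-Hochberg method. mt-Nd3 exceeded mt-Nd1 by 3.02-fold and mt-Nd1 exceeded mt-Nd5 by 3.71-fold, each in 6 of 6 libraries. mt-Nd2 exceeded mt-Nd4 by 1.19-fold and mt-Nd4 exceeded mt-Nd6 by 2.64-fold, also each in 6 of 6 libraries. These 4 steps had an exact p of 0.0312, the smallest that 6 libraries allow, and an adjusted p of 0.0469. The order was taken from the same 6 libraries, both groups pooled, so these p-values describe only how steadily a step recurs among them. They cannot tell a difference in abundance from a bias of FPKM that recurs in every library. mt-Nd5 and mt-Nd2 did not differ beyond their spread, with mt-Nd5 higher in 5 of 6 libraries and an exact adjusted p of 0.525. Nor did mt-Nd6 and mt-Nd4l, with mt-Nd6 higher in 4 of 6 libraries and an exact adjusted p of 0.938.

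**Figure D1:**
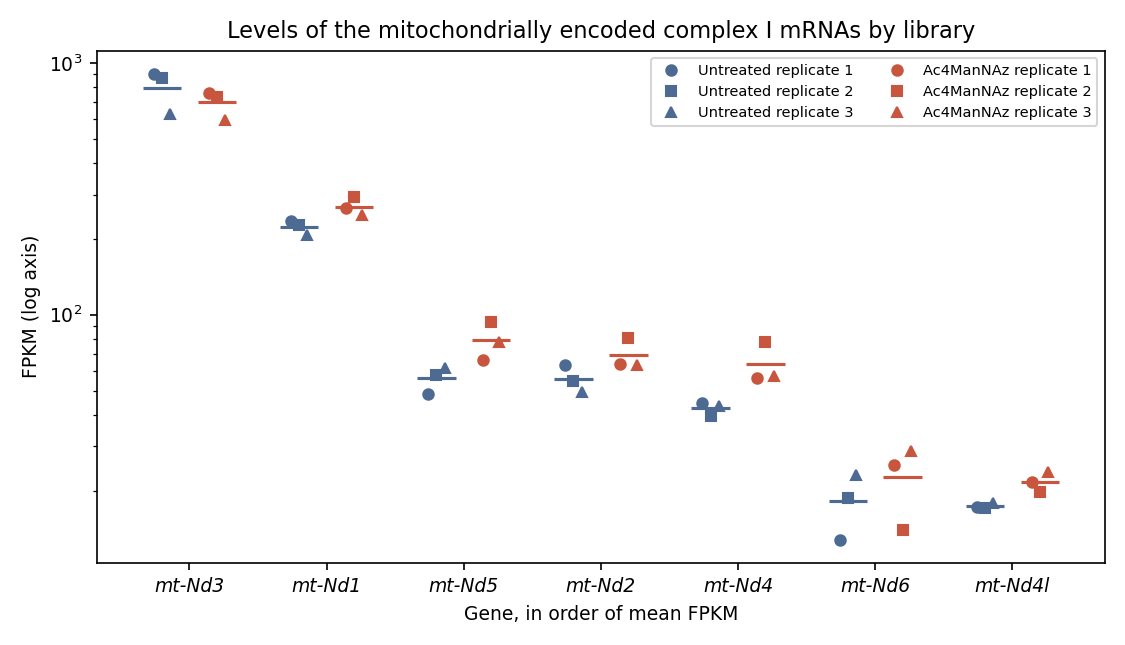
FPKM (log axis) of the 7 complex I members, in order of mean level, with a point for each library and a bar for each group mean (n = 3). mt-Nd3 and mt-Nd1 lie above the rest in all libraries, and mt-Nd4, mt-Nd5, mt-Nd1 and mt-Nd4l are the genes whose treated points all lie above the untreated ones.

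6 of the 7 members averaged higher after Ac4ManNAz, as did 49.6% of all genes tested, and mt-Nd3 averaged lower, but 0 of 7 passed the test, as did 0% of all 9925 genes tested. The test was limma on log2(FPKM + 1) with Benjamini-Hochberg adjustment over all those genes, and the smallest adjusted p of any gene was 0.9998. The groups did not overlap for 4 of the 7 members, mt-Nd1, mt-Nd4, mt-Nd4l and mt-Nd5, all with treated above untreated, where 2.10% of all genes had that arrangement. These members share the heavy-strand precursor, and mt-Nd4l and mt-Nd4 an mRNA, so they are not independent and such shares are not a test. The same 4 members had an unadjusted limma p under 0.05, where 0.877% of all genes did in that direction. Leaving out untreated replicate 2, or Ac4ManNAz replicate 1 or 3, brought this number to 2, and it was 0 when libraries were scaled to equal summed FPKM of the 13 mitochondrial genes. Without Ac4ManNAz replicate 2, 3 members had such a p, mt-Nd4, mt-Nd4l and mt-Nd5, and the differences of mt-Nd4l and mt-Nd5 were 0.37 and 0.36. mt-Nd1 was not among them, with a difference of 0.20 and an unadjusted limma p of 0.152. The mean differences of the 6 members were above 0 and that of mt-Nd3 below 0 in all 20 settings of the fit, scalings included. The settings of filter, variance model, replicate block and transcript choice cannot change a member's mean difference, so the sign was fixed there. For the 4 members whose groups did not overlap, pseudocount, sample weights and leaving out a library could not change the sign either. The median log2 difference was 0.30 over the members and 0.00 over all genes tested. A rise was not established here. Were there one, more mitochondrial mRNA per cell and more cells rich in it could not be told apart in RNA from bulk cells.

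The antiporter-like subunits come first. mt-Nd4 had 44.7, 39.8 and 43.4 FPKM without the analog, against 56.0, 78.2 and 57.0 FPKM with it. The untreated libraries lay close together and below all treated ones, and Ac4ManNAz replicate 2 stood highest. Its log2 difference was 0.55 ± 0.15 (SE), with a 95% limma interval from 0.21 to 0.90, an unadjusted p of 0.00679 and an adjusted p of 0.9998. Without Ac4ManNAz replicate 2 the difference was 0.40.

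mt-Nd5 had 48.5, 57.6 and 61.4 FPKM without the analog, against 66.2, 93.6 and 77.8 FPKM with it. Its groups were also separate, and Ac4ManNAz replicate 2 was again the highest library. The log2 difference was 0.49 ± 0.15, with an interval from 0.12 to 0.85 and an adjusted limma p of 0.9998. mt-Nd2 had 63.4, 54.5 and 49.5 FPKM without the analog, against 63.6, 80.9 and 63.3 FPKM with it. Untreated replicate 1 reached the level of Ac4ManNAz replicates 1 and 3, so its groups met. The log2 difference of mt-Nd2 was 0.31 ± 0.14, with an interval from -0.03 to 0.64, and it was 0.19 without Ac4ManNAz replicate 2.

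The subunits at the ubiquinone end had mean differences of opposite sign. mt-Nd1 had 236, 228 and 208 FPKM without the analog, against 265, 293 and 249 FPKM with it. The groups did not overlap, but the gap between untreated replicate 1 and Ac4ManNAz replicate 3 was narrow, at 0.07 on the log2 scale. Its log2 difference was 0.26 ± 0.11, with an interval from 0.00 to 0.52, and it was 0.16 with libraries scaled to equal mitochondrial FPKM. mt-Nd3 had 904, 868 and 625 FPKM without the analog, against 762, 735 and 595 FPKM with it. Its libraries overlapped, with replicate 3 the lowest in both groups. The log2 difference of mt-Nd3 was -0.19 ± 0.18, with an interval from -0.62 to 0.25, and leaving out single libraries gave values from -0.35 to -0.08.

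The 2 members with the lowest levels differed in spread. mt-Nd4l, which sits in the membrane arm and shares its mRNA with mt-Nd4, had 17.2, 17.0 and 17.9 FPKM without the analog, against 21.7, 19.7 and 23.8 FPKM with it. Its untreated libraries had an SD of 0.458 FPKM and lay below all treated ones. The log2 difference of mt-Nd4l was 0.30 ± 0.11, with an interval from 0.05 to 0.56. mt-Nd6, the light-strand member, had 12.8, 18.6 and 23.2 FPKM without the analog, against 25.4, 14.0 and 28.7 FPKM with it. Untreated replicate 1 and Ac4ManNAz replicate 2 were its low libraries, and the groups overlapped widely. Its log2 difference of 0.28 ± 0.30 had the widest interval of the 7 members, from -0.44 to 1.00. It was 0.06 without untreated replicate 1 and 0.58 without Ac4ManNAz replicate 2.

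**Figure D2:**
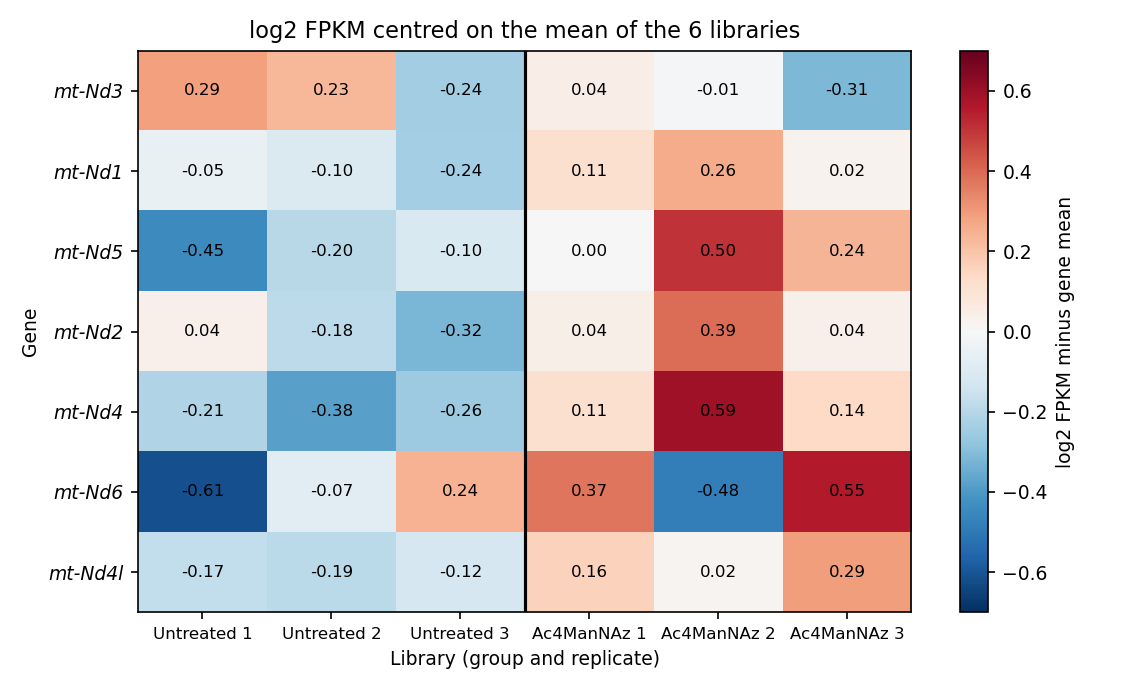
log2 FPKM of each member in each library, centred on the member's mean over the 6 libraries, with red above and blue below that mean. Ac4ManNAz replicate 2 is the highest library for mt-Nd4, mt-Nd5, mt-Nd2 and mt-Nd1 and, at -0.48, the second lowest for mt-Nd6.

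Members varied among themselves to different degrees over the 6 libraries. mt-Nd6 had the largest SD of log2 FPKM, 0.47, and a 2.24-fold range from the lowest to the highest library. mt-Nd1 had the smallest SD, 0.17, with a 1.41-fold range. mt-Nd4 and mt-Nd5 varied by 0.36 and 0.33 and mt-Nd4l by 0.20.

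Ratios within a library do not depend on how libraries are scaled, and compare the members directly. For 5 of the 21 ratios the groups did not overlap, or 23.8%, where 5.52% of all pairs of 9900 tested genes had that property. The ratios share members and are not independent. None of the 21 passed, since the exact two-sided permutation test of 3 against 3 libraries cannot go below p = 0.1, and the smallest adjusted p over the 21 ratios was 0.42. The 5 were mt-Nd3 to mt-Nd1, mt-Nd3 to mt-Nd2, mt-Nd3 to mt-Nd4, mt-Nd1 to mt-Nd4 and mt-Nd2 to mt-Nd4, so that mt-Nd3 was in 3 of them and mt-Nd4 in 3.

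mt-Nd3 stood at 20.2, 21.8 and 14.4 times the level of mt-Nd4 in the untreated libraries and at 13.6, 9.40 and 10.4 times in the treated ones. All treated ratios were lower, although untreated replicate 3 and Ac4ManNAz replicate 1 lay close to each other. The log2 ratio averaged 4.21 ± 0.32 in untreated and 3.46 ± 0.28 in treated cells (SD, n = 3 each, exact permutation p = 0.1), a difference of -0.75. mt-Nd3 stood at 3.82, 3.81 and 3.01 times mt-Nd1 in untreated and 2.88, 2.51 and 2.39 times in treated libraries. mt-Nd2 stood at 1.42, 1.37 and 1.14 times mt-Nd4 in untreated and 1.14, 1.03 and 1.11 times in treated libraries. In that ratio untreated replicate 3 and Ac4ManNAz replicate 1 were almost level.

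The joined genes mt-Nd4 and mt-Nd4l had a ratio of 2.60, 2.33 and 2.42 in the untreated libraries. In the treated libraries it was 2.58, 3.97 and 2.40, so that Ac4ManNAz replicate 2 alone stood apart and the groups overlapped (exact permutation p = 0.5). mt-Nd5 to mt-Nd4 stood at 1.09, 1.45 and 1.42 in untreated and at 1.18, 1.20 and 1.36 in treated libraries, also overlapping (exact permutation p = 0.8). The steadiest of the 21 ratios was mt-Nd1 to mt-Nd2, with an SD of 0.09 on the log2 scale over 6 libraries and a range of 3.62 to 4.20. The least steady was mt-Nd3 to mt-Nd6, with an SD of 0.67 and a range of 20.7 to 70.6.

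The light-strand gene was next set against the heavy-strand members. mt-Nd6 amounted to 0.974%, 1.47% and 2.31% of the summed FPKM of the 6 heavy-strand members in untreated libraries. In treated libraries it amounted to 2.05%, 1.08% and 2.70%. Both groups spanned nearly the same range. The log2 level of mt-Nd6 minus the mean log2 level of the heavy-strand members averaged -2.28 ± 0.49 in untreated and -2.28 ± 0.68 in treated cells (SD, n = 3). The means were thus alike, but the spread leaves room for a difference of either sign, since single libraries ran from -3.06 to -1.80. For its neighbour mt-Nd5, the ratio to mt-Nd6 was 3.79, 3.09 and 2.65 in untreated and 2.61, 6.68 and 2.71 in treated libraries (exact permutation p = 0.9). Ac4ManNAz replicate 2, in which mt-Nd5 was highest and mt-Nd6 low, was the only library above 4 in this ratio. The groups overlapped in all 6 ratios that involve mt-Nd6.

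**Figure D3:**
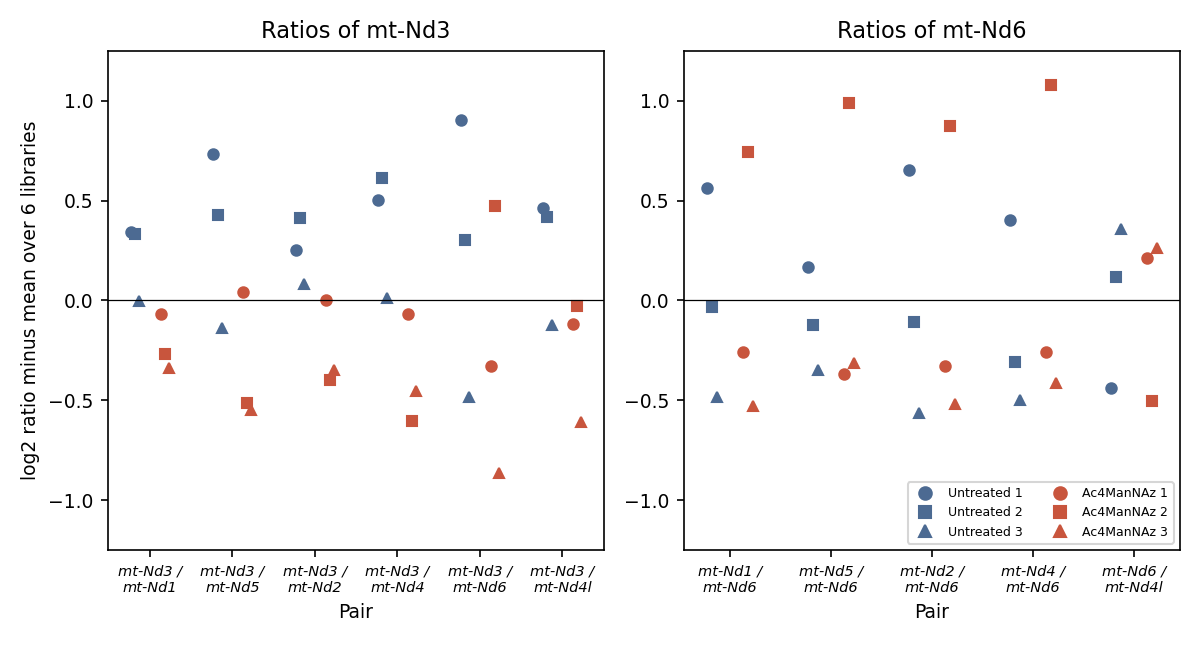
log2 ratios of mt-Nd3 to other members (left) and log2 ratios that involve mt-Nd6 (right), each minus its mean over the 6 libraries, with a point for each library. On the right, mt-Nd1, mt-Nd5, mt-Nd2 and mt-Nd4 are divided by mt-Nd6, so high points there mean low mt-Nd6. Only the last pair has mt-Nd6 divided by mt-Nd4l. The treated ratios of mt-Nd3 to mt-Nd1, mt-Nd2 and mt-Nd4 all lie below the untreated ones, whereas the groups overlap in every ratio of mt-Nd6.

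The 6 other protein-coding genes of the mitochondrial genome share the heavy-strand precursor. All 6 averaged higher after Ac4ManNAz, with a median log2 difference of 0.17, and 0 passed limma's adjusted test. For mt-Co3, at 0.03, the difference was below 0 in 5 of the 20 settings, down to -0.14 without untreated replicate 3. mt-Cytb, the cytochrome of complex III, had 163, 122 and 121 FPKM without the analog, against 181, 208 and 166 FPKM with it. It was the only one of the 6 whose groups did not overlap, with treated above untreated, as for 2.1% of all genes. The difference between complex I members and these genes was not tested. Untreated replicate 1 split the heavy-strand genes. It was the highest library for mt-Co1, at 3098 FPKM against 1700 to 2364 in the others, and for mt-Co2, mt-Co3, mt-Atp8 and mt-Nd3, but the lowest for mt-Nd5 and for the light-strand mt-Nd6.

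**Figure D4:**
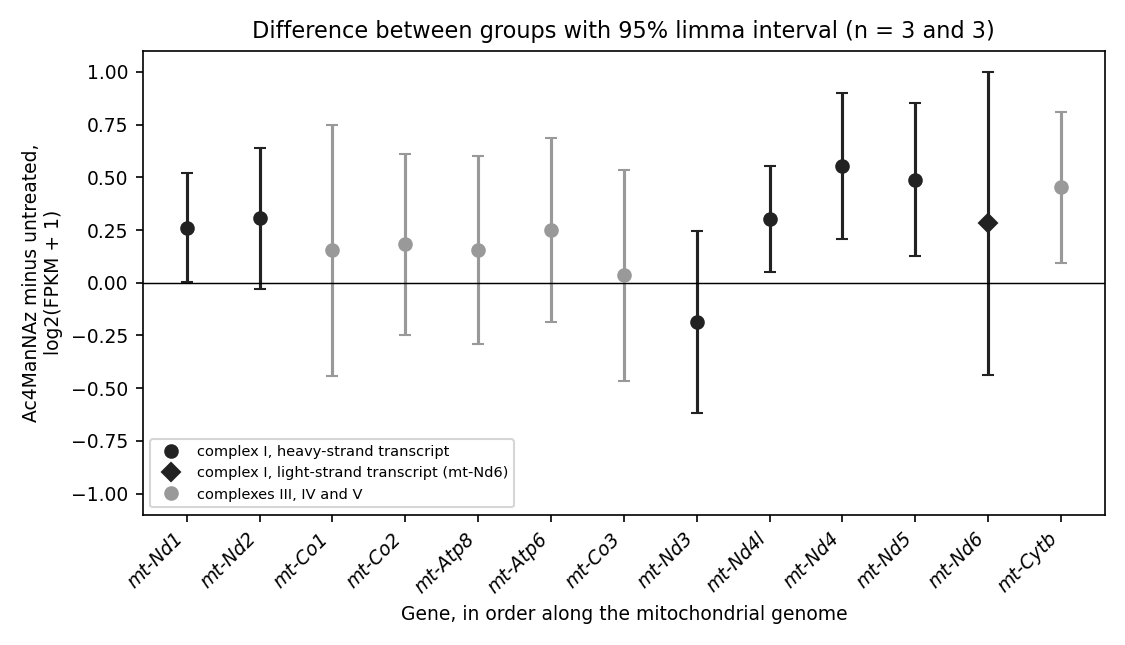
Difference in log2(FPKM + 1), Ac4ManNAz minus untreated, for the 13 mitochondrial protein-coding genes in genome order, with 95% limma intervals (n = 3 in each group). The intervals of mt-Nd1, mt-Nd4l, mt-Nd4, mt-Nd5 and mt-Cytb lie above 0, the first only just, and mt-Nd3 is the only gene with a mean below 0 here, mt-Co3 being below 0 in 5 of the 20 settings.

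Genes encoded in the nucleus for the same complex were compared by the same fit, together with genes that make and keep mitochondrial RNA. 0 of these 89 tested genes passed limma's adjusted test, and 2 had an unadjusted p under 0.05, Ndufa10 and Mterf3, both lower, as did 0.907% of all genes in that direction. Of the 7 nuclear core subunits, which hold the NADH site and the iron-sulfur clusters, 6 averaged lower and 1 higher, with a median log2 difference of -0.02 and a range of -0.13 to 0.02. In all 7 the groups overlapped. Ndufs8 averaged 77.2 ± 18.4 FPKM in untreated and 69.6 ± 12.2 FPKM in treated cells, and Ndufs3 averaged 62.1 ± 6.98 and 58.6 ± 4.76 FPKM. Of 29 tested accessory subunits out of 30 in the list, 12 averaged higher and 17 lower, with a median of -0.04.

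Ndufa10, an accessory subunit of the membrane arm, had 28.1, 28.8 and 25.3 FPKM without the analog, against 8.75, 8.22 and 24.2 FPKM with it. Ac4ManNAz replicates 1 and 2 were low, while replicate 3 was near the untreated level (log2 difference -1.11 ± 0.37, adjusted limma p 0.9998). Ndufb8 averaged 82.2 ± 16.2 and 98.2 ± 9.16 FPKM, and Ndufs4 averaged 25.1 ± 2.27 and 22.2 ± 2.55 FPKM. Of 17 assembly factors, 4 averaged higher and 13 lower, with a median of -0.10. Ndufaf2 averaged 26.4 ± 2.49 and 23.2 ± 1.11 FPKM, Ndufaf3 6.43 ± 1.02 and 7.75 ± 1.05 FPKM, and Timmdc1 24.7 ± 1.27 and 22.3 ± 1.92 FPKM.

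Of 16 genes of mitochondrial transcription and DNA replication, 7 averaged higher and 9 lower, with a median of -0.07. Mterf3, which holds back mitochondrial transcription in mice, had 4.54, 5.15 and 4.80 FPKM without the analog, against 2.69, 2.53 and 3.90 FPKM with it. All treated values were lower, as for 3.71% of all genes, and its log2 difference was -0.54 ± 0.17 (unadjusted limma p 0.0141, adjusted 0.9998). The repair primase-polymerase gene Primpol averaged 2.84 ± 0.240 and 3.73 ± 0.992 FPKM, and Polg, the mitochondrial DNA polymerase, 8.28 ± 1.37 and 9.58 ± 0.142 FPKM.

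Of 12 tested RNA processing genes out of 13, 2 averaged higher and 10 lower, with a median of -0.15. Tbrg4 and Fastkd3 belong to the FASTK family of mitochondrial RNA-binding proteins. Tbrg4 averaged 20.98 ± 1.35 and 17.8 ± 1.33 FPKM, Fastkd3 1.85 ± 0.811 and 1.02 ± 0.150 FPKM, and Elac2, which cuts the 3′ ends of mitochondrial tRNAs, 17.5 ± 3.38 and 14.0 ± 1.92 FPKM. Of 8 RNA stability genes, 2 averaged higher and 6 lower, with a median of -0.04. Lrpprc, which with Slirp protects heavy-strand mRNAs from decay, had 23.7, 26.9 and 26.8 FPKM without the analog, against 21.9, 22.5 and 23.5 FPKM with it. Slirp was at 17.5, 17.9 and 16.9 FPKM and at 16.5, 15.1 and 16.0 FPKM. In both genes all treated values were lower, as for 3.71% of all genes. The gaps were narrow, with unadjusted limma p of 0.118 and 0.227. All treated values were also lower in 3 of the 12 RNA processing genes, Tbrg4 among them. In Ndufb8 and Polg all treated values were higher, as for 2.1% of all genes. The mitochondrial poly(A) polymerase gene Mtpap averaged 3.30 ± 2.23 and 4.29 ± 0.544 FPKM, with untreated replicate 1 alone at 0.740 FPKM.

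The profile of the 7 members over the 6 libraries was compared with that of each of the 6868 genes whose mean reached 5 FPKM. Likeness was the root mean square difference between the gene and the mean of the members, each as log2(FPKM + 1) centred on its own mean. The nuclear genes closest to the members were Man2a2, a Golgi mannosidase, at 0.0547, Clip2, a microtubule-binding protein, at 0.0627, Fam174a at 0.0689, Xpc, which recognises damaged DNA, at 0.0703, and Eif2ak3, the stress kinase PERK, at 0.0723. The median over all these genes was 0.229. Man2a2 had 13.2, 12.5 and 11.7 FPKM without the analog, against 15.1, 16.0 and 14.8 FPKM with it. Among the members themselves mt-Nd1 ranked 9th and mt-Nd4l 37th, while mt-Nd3 and mt-Nd6 ranked 5440th and 6192nd. The mean profile contains each member, so these ranks are partly fixed by construction. With 6 libraries and 6868 genes, close profiles arise readily, and the ranking is a description without a test.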

How the data were processed

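Strand-specific libraries were made from total RNA after removal of rRNA, per the labels' protocols. The authors deposited 1 table of FPKM, with 59192 transcripts and 6 libraries; the unit was taken from the table's name and its values. For the aligner, quantifier, build and annotation, names are not given in the sources. Transcripts were summed to 21801 genes. Genes whose mean reached 1 FPKM, 9925 in all, were tested on log2(FPKM + 1), which understates differences of low genes, with limma 3.58.1 in R 4.3.3 (eBayes with trend, two-sided, Benjamini-Hochberg adjustment, threshold 0.05); intervals are 95% and per gene. No count test was used. The fit was tested on simulated data. Ratios and the order of levels used exact permutation tests in Python 3.11.15 with scipy 1.17.1. Transcript sequences came from GENCODE M21, and nuclear copies were found with BLAST 2.17.0 at 85% identity or more over at least 150 bases.

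All 7 members were named, with the 3 smallest p of each of 6 other lists, fixed subunit ratios and the 5 genes of closest profile; mt-Cytb, mt-Co1 and other single features were described after their values were seen. The values of 1 gene among the smallest p are not reported here. The symbol Coa1 was not matched, and mitochondrial rRNAs were not analysed here. Members and lists were chosen with earlier results of these data known.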

Additional observations from a re-analysis of the deposited data

How the results depend on the processing

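Under 19 alternatives (pseudocount, filter, scaling, variance model, sample weights, replicate block, most abundant transcript, each library left out) 0 of the 7 members passed in any, 6 averaged higher and mt-Nd3 averaged lower in all. For filter, variance model, replicate block and transcript choice the members' directions were fixed in advance, since their mean differences cannot change. For mt-Nd1, mt-Nd4, mt-Nd4l and mt-Nd5, whose groups did not overlap, pseudocount, sample weights and leaving out a library could not change the direction. The median log2 difference of the members ranged from 0.20 to 0.42. Over all genes limma called 2 with array quality weights, 4 when each gene was read from its most abundant transcript, and 0 to 1 with single libraries left out; 177 genes had an unadjusted p under 0.05, from 120 to 532 with single libraries left out, 331 without a filter and 2389 with array quality weights. The members with an unadjusted p under 0.05 numbered 0 to 6 over all settings. The 0 came with libraries scaled to equal mitochondrial FPKM. The 6 came with array quality weights, where 2389 of 9925 genes had such a p, and included mt-Nd3, which averaged lower.

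The mt-Nd4 difference ranged from 0.40 to 0.64 and that of mt-Nd6 from 0.06, without untreated replicate 1, to 0.58, without Ac4ManNAz replicate 2. The deviations of same-numbered libraries from their group means had low but positive correlations, of 0.06, 0.02 and 0.26 over 9925 genes. Whether such libraries share more than a number is not known from these values or the labels. With replicate as a block limma called 0 genes and 0 members, and 3 members had an unadjusted p under 0.05. Also 0 of 21 ratios passed, but a sign-flip test over 3 paired differences cannot reach the threshold, so that outcome was fixed.

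Of the neighbouring levels, 4 passed with all 6 libraries and 0 with any library left out, where 5 libraries cannot reach the threshold. Non-overlapping ratios numbered 5 with all 6 libraries and 5 to 7 with a library left out, where fewer libraries separate more readily. The share over all pairs of tested genes, 5.52%, was computed with all 6 libraries only. The table holds no counts, so counting error is not known.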

Other observations

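mt-Atp8 and mt-Atp6, whose reading frames overlap in a shared mRNA of ATP synthase subunits, were listed at unequal levels, much as the joined mt-Nd4l and mt-Nd4 were. mt-Atp8 had 191, 142 and 121 FPKM without the analog, against 174, 184 and 142 FPKM with it. mt-Atp6 was at 69.9, 48.8 and 44.3 FPKM and at 62.3, 72.2 and 56.8 FPKM. The shorter gene of the pair was thus the higher for ATP synthase, while the shorter mt-Nd4l was the lower for complex I, in all 6 libraries. The cause was not tested. Annotated nuclear copies identical over the aligned bases cover 99.6% of mt-Atp6, 99.6% of mt-Co2 and 99.9% of mt-Co3.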
